A study of Mus musculus with 4 samples.

Results

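The genes described here are 40 members of the Wnt pathway, taken by their symbols from the 31053 genes listed for each library of a single-cell RNA-seq study of the dorsal ventricular-subventricular zone (V-SVZ) of the postnatal mouse brain. All 40 symbols were found in each of the 4 libraries, and 38 to 40 of them had at least 1 unique molecular identifier (UMI, a tag that marks 1 captured transcript) in a library. The members were chosen by name and pathway role, not by their level, but with earlier results of these data known. OF1 mice, an outbred strain, were used at postnatal day 2 (P2), P12 or P22, with no transgene or treatment named for any group, and the dorsal wall was microdissected and dissociated with papain. There was 1 library at P2, 2 at P12 from independent experiments (replicates 1 and 2) and 1 at P22, each made from 2 pooled mice. The labels give all mice as male, whereas the study's methods include a female at P2, so that sex may go with age. The Cell Ranger version named in the files was 3.1.0 at P12 and 5.0.1 at P2 and P22. Since P2 and P22 had 1 library each, age is described here without a test.

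Wnt proteins are lipid-modified ligands that need Wls to leave the cell, and they act through Frizzled (Fzd) receptors with the coreceptors Lrp5 and Lrp6. In the canonical branch they stop a destruction complex of Axin, Apc and Gsk3b from degrading beta-catenin (Ctnnb1), which then acts with the TCF/LEF factors on target genes, several of which (Axin2, Nkd1, Notum, Znrf3, Rnf43, Apcdd1) restrain the pathway in turn. In the postnatal brain Wnt signals are known for their part in stem cell activation and regional identity in the V-SVZ, in oligodendrocyte maturation and in the vessels that form the blood-brain barrier.

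Cells were kept if they had between 2000 and 8000 genes detected and no more than 10% of counts from mitochondria, which left 4027 at P2, 7006 and 4596 at P12 (replicates 1 and 2) and 4231 at P22, with median depths of 11851.5 to 14303 UMIs per cell. Cells were assigned to states by gates on marker genes, none of which is a member. Quiescent neural stem cells (qNSCs, with Slc1a3 and without Egfr or dividing-cell genes) numbered 315 to 1754 per library, activated NSCs (aNSCs, by a gate that includes Egfr and leaves out cells with Dlx1 or Dlx2) 68 to 677, and transit amplifying progenitors (TAPs, with Dlx1 and Dlx2 in addition) 46 to 233. GABAergic neuroblasts, gated on Dcx, Cd24a, Nrxn3 and a GABAergic gene, numbered 1882, 517, 13 and 1784 at P2, P12 replicates 1 and 2 and P22, and the group of 13 was left out. Markers fixed for checking were summed by state, and some states also held markers of another, as given below for ependymal and endothelial cells. Among endothelial markers outside the gate, Slco1a4 was at 1282 and 819.7 CPM in endothelial cells at P12 (replicates 1 and 2) and at 0.120 and 0.421 in qNSCs. CPM here and below are UMIs of a gene scaled to a sum of 1000000 over all genes. Libraries shared 5 to 12 barcodes in pairs. Oligodendrocyte precursors (OPCs) held more of the cells with the highest doublet scores than the library as a whole, 17.5% at P2 and 13.4% at P22 against the 5% set for each library.

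For each state and library the UMIs of all its cells were summed, and levels are given in CPM of that sum. Where values of 4 libraries are listed they stand in the order P2, P12 replicate 1, P12 replicate 2 and P22, and lists of 3 or 2 values keep that order for the libraries named. Fold changes are log2 values from edgeR, with ± giving their standard error, after trimmed-mean normalization and with the library as a block, because both states of a library came from the same animals. Trimmed-mean factors were set against scaling by total UMIs as a log2 ratio between the states. It was -0.11 (neuroblasts over TAPs), 0.14 (glutamatergic over GABAergic lineage) and 0.24 (OPCs over qNSCs), and under 0.1 in size in the other planned comparisons. A positive ratio lowers the fold changes and a negative one raises them. A gene was called when the adjusted p of edgeR's quasi-likelihood test, corrected over all genes tested, was at most 0.05. The mice of a library were pooled and the libraries differ in age, so these p-values bear on the consistency of a difference over 2 to 4 libraries. With 2 libraries the fit left 1 residual degree of freedom and borrowed the spread of all genes. Very small p-values there rest largely on that borrowed spread and on the UMI counts. A lower level can mean fewer cells with the transcript or fewer transcripts per cell. Because reads came from the 3′ ends of transcripts, levels are compared between states for 1 gene and not between genes.

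Promoter sequence was available for 23 of the 40 members, in 32 windows of the RefSeq annotation of GRCm38.p6, the assembly also called mm10. The 250 bases before each start were searched on both strands for the forms of the core that TCF/LEF proteins bind. Of the 32851 windows of all genes, CTTTGAT stood in 3.21%, CTTTGAA in 4.46%, CTTTGTT in 5.03% and CTTTGTA in 3.20%, and at least 1 of these 4 in 14.8%. The forms do not overlap each other on a strand. Windows of 4 members held 1 of them. These 4 are printed in the direction of transcription because they are the member promoters that hold the motif. With 32 windows for 23 members, some members have more than 1 start, and a printed window need not lie at the main one. Capitals mark the motif, which in Fzd7 and Lef1 lies on the other strand and is read there as its reverse complement. The windows lie at chr1:59481897-59482146 (plus strand) for the receptor Fzd7, chr3:131156044-131156293 (plus strand) for the nuclear factor Lef1, chr6:119449387-119449636 (minus strand) for the ligand Wnt5b and chr19:55895071-55895320 (plus strand) for the nuclear factor Tcf7l2. The match begins 130, 147, 71 and 14 bases before the start, in that order.
Fzd7: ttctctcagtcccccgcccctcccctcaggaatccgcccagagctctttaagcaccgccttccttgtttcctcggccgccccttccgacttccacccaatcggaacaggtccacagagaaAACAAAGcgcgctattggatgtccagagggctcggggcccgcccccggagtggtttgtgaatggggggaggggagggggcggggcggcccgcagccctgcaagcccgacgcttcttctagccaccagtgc
Lef1: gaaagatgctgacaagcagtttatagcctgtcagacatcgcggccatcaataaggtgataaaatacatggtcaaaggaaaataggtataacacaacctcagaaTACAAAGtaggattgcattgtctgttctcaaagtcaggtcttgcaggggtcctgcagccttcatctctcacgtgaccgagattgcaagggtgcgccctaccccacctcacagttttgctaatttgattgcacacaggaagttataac
Wnt5b: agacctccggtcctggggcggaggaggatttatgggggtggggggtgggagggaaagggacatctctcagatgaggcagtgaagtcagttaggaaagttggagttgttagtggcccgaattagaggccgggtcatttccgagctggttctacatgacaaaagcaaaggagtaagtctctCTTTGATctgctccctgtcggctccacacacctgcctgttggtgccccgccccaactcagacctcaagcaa
Tcf7l2: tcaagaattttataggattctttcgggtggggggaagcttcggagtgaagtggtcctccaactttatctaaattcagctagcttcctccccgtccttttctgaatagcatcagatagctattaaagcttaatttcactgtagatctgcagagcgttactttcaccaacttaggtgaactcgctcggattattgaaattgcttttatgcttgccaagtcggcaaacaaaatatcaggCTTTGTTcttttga
A match is a description of letters and shows no binding.

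Most members were measured in the stem cell lineage, but a few were almost absent from qNSCs, aNSCs and TAPs. Wnt8b, a ligand of the embryonic cortical hem, had no UMI in any state that enters a comparison apart from 1 UMI among GABAergic-lineage cells at P22. Rspo2, a secreted enhancer of Wnt signaling, had 1 UMI in qNSCs and none in aNSCs or TAPs. Ror1, a receptor for noncanonical ligands, stayed at or below 0.813 CPM in qNSCs, aNSCs and TAPs, and Lgr5, a receptor for R-spondins, at or below 0.415. Sfrp1, a secreted Wnt inhibitor, was at 979, 1045, 1181 and 624 CPM in qNSCs and fell in level state by state to 71.8, 116 and 38.2 in neuroblasts at P2, P12 replicate 1 and P22. Gsk3b, the kinase of the destruction complex, varied less, at 246 to 352 CPM in qNSCs and 338 to 385 in TAPs.

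**Figure D1:**
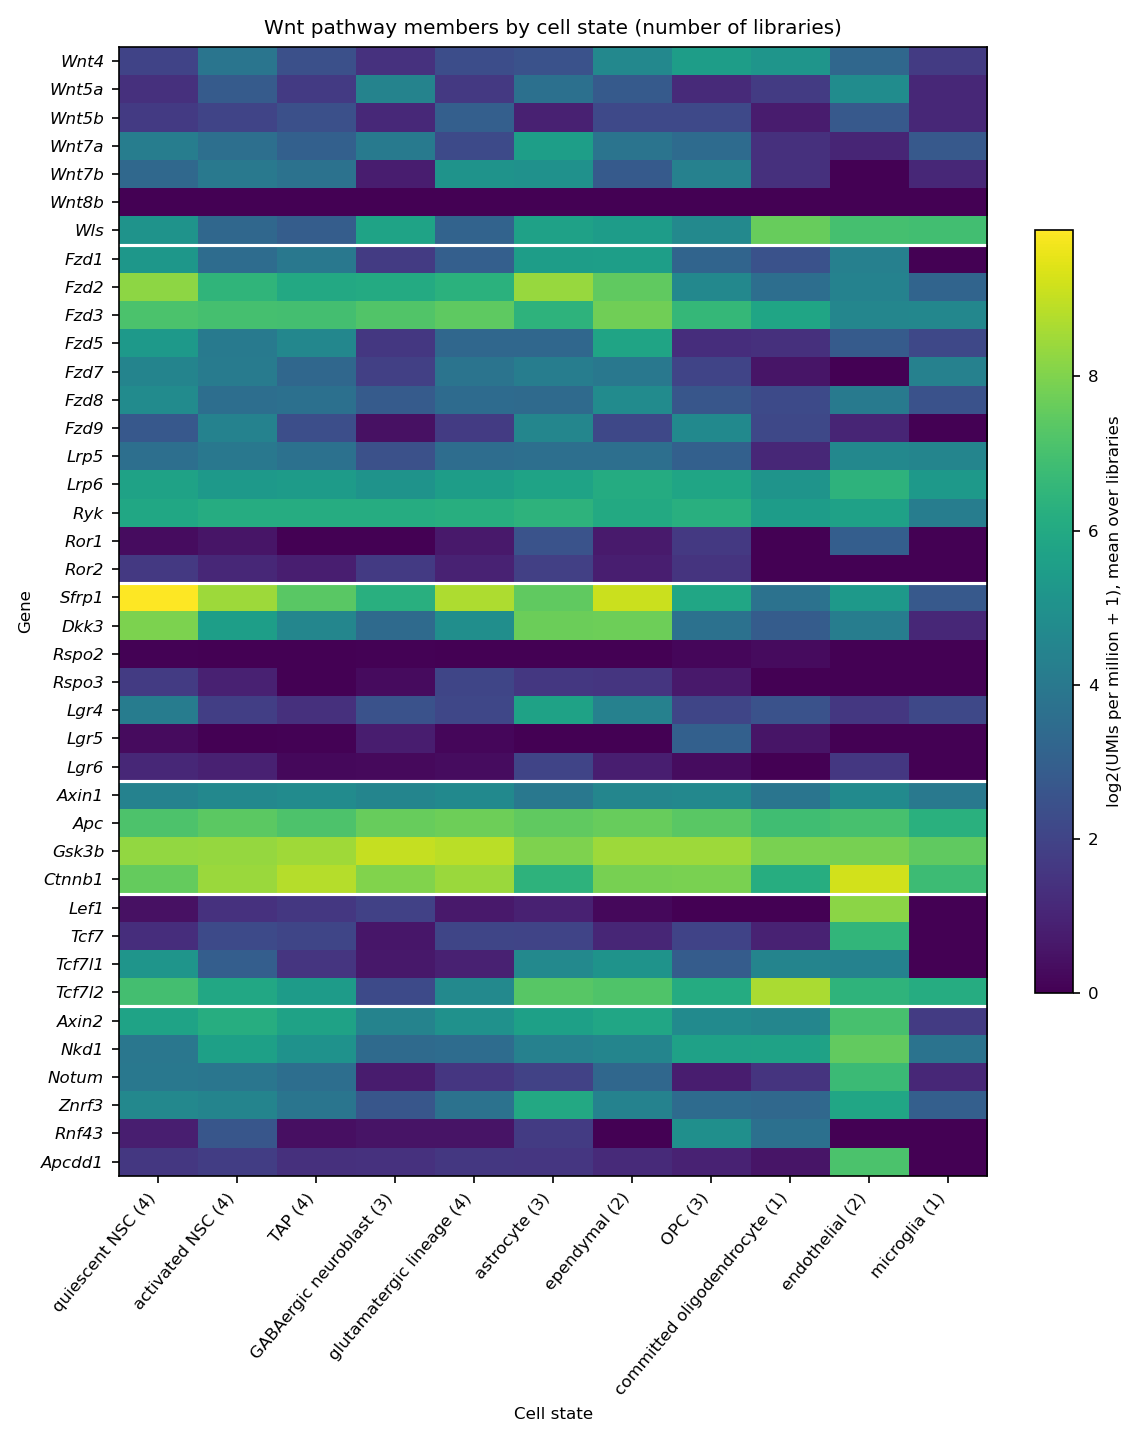
Heat map of the 40 members (rows) in 11 gated states (columns), as log2 of CPM plus 1, averaged over the libraries with enough cells, whose number stands with each state. Lef1, Tcf7, Apcdd1 and Notum stand out in endothelial cells, Dkk3 and Fzd2 are highest in the qNSC, astrocyte and ependymal columns, Sfrp1 is highest in qNSCs, and Wnt8b and Rspo2 are near empty.

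In aNSCs the Frizzled receptors Fzd1, Fzd2, Fzd5 and Fzd8, the secreted modulators Sfrp1 and Dkk3 and the nuclear factors Tcf7l1 and Tcf7l2 were lower, whereas the ligands Wnt4, Wnt5a and Wnt7b, beta-catenin and the feedback genes Nkd1 and Rnf43 were higher. Of 34 members tested in all 4 libraries, 8 were higher and 12 lower in aNSCs. Among all genes tested 65.1% were called, 31.2% higher and 33.9% lower, so the members were called about as often as other genes. The median fold change of the members was -0.07, beside -0.04 for all genes tested.

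Among ligands, Wnt4 was at 2.08, 3.48, 2.19 and 4.15 CPM in qNSCs and 10.7, 17.7, 9.25 and 15.9 in aNSCs (log2 fold change 2.14 ± 0.18, adjusted p = 5.41e-06), higher in aNSCs of every library without overlap. Wnt5a, a ligand best known for noncanonical signaling, was at 2.49, 1.32, 1.60 and 0.890 against 7.34, 6.33, 5.36 and 5.69 (log2 fold change 1.93 ± 0.26, adjusted p = 0.000125), again without overlap. Wnt7b and Wnt7a, ligands that brain cells send to vessels, moved in opposite directions. Wnt7b was at 12.0, 5.22, 7.23 and 11.9 in qNSCs and 7.91, 20.1, 15.6 and 16.3 in aNSCs (log2 fold change 0.95 ± 0.31, adjusted p = 0.0212), lower in aNSCs at P2 and higher in the other 3 libraries. Wnt7a was at 25.1, 12.0, 20.9 and 11.3 in qNSCs and 14.1, 11.2, 15.9 and 4.47 in aNSCs (log2 fold change -0.53 ± 0.18, adjusted p = 0.027), with overlapping groups. Wls, which carries Wnt ligands to the cell surface, was at 22.0, 28.0, 37.9 and 44.5 in qNSCs and 5.65, 6.33, 11.5 and 12.6 in aNSCs (log2 fold change -1.95 ± 0.14, adjusted p = 1.54e-06). Every aNSC value of Wls lay below every qNSC value. Wnt5b was not called (0.55 ± 0.28, adjusted p = 0.113).

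Of the 11 receptors and coreceptors tested, 1 was higher and 5 were lower in aNSCs. Fzd2 was at 213, 251, 262 and 459 CPM in qNSCs and 62.1, 88.2, 99.5 and 108 in aNSCs (log2 fold change -1.73 ± 0.13, adjusted p = 2.68e-06), with no overlap. Fzd1 was at 11.01, 32.8, 77.0 and 27.9 against 6.21, 9.42, 19.2 and 6.50 (log2 fold change -1.90 ± 0.16, adjusted p = 4.66e-06), and Fzd5 at 11.8, 43.5, 63.2 and 41.5 against 6.21, 16.9, 25.6 and 14.2 (log2 fold change -1.39 ± 0.12, adjusted p = 5.84e-06). Both were lower in aNSCs within every library but varied so much among libraries that the groups overlapped. Fzd8 was also lower (-1.21 ± 0.17, adjusted p = 0.000154), as was the coreceptor Lrp6 by a small amount (-0.40 ± 0.11, adjusted p = 0.0102). Fzd9 was the single receptor that was higher, at 8.52, 4.74, 2.69 and 6.23 in qNSCs and 30.5, 15.2, 7.78 and 27.2 in aNSCs (log2 fold change 1.71 ± 0.16, adjusted p = 1.05e-05). Fzd3 (-0.11 ± 0.13, adjusted p = 0.482), Fzd7 (-0.46 ± 0.21, adjusted p = 0.0777), Lrp5 (0.33 ± 0.14, adjusted p = 0.0642), Ryk (0.17 ± 0.10, adjusted p = 0.157) and Ror2 (-0.64 ± 0.38, adjusted p = 0.164) were not called.

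The secreted modulators Dkk3 and Sfrp1 and the receptor Lgr4 were lower in aNSCs. Dkk3, a divergent member of the Dickkopf family, was at 161, 287, 318 and 223 CPM in qNSCs and 21.5, 62.5, 64.5 and 33.3 in aNSCs (log2 fold change -2.53 ± 0.14, adjusted p = 3.78e-07). Sfrp1 was at 344, 362, 471 and 205 in aNSCs, below every qNSC value given above (log2 fold change -1.55 ± 0.11, adjusted p = 1.6e-06). Lgr4, a receptor for R-spondins, was at 10.4, 19.0, 29.1 and 9.20 in qNSCs and 0, 3.09, 6.02 and 1.22 in aNSCs (log2 fold change -2.60 ± 0.25, adjusted p = 1.01e-05). These 3 genes had no overlap between states. Lgr6 was not called (-0.10 ± 0.43, adjusted p = 0.849), and Lgr5 had 6 UMIs in qNSCs and 1 in aNSCs.

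The nuclear factors went in both directions. Tcf7l1, which mostly acts as a repressor, was at 33.9, 36.3, 43.2 and 25.5 CPM in qNSCs and 6.21, 7.12, 12.0 and 2.03 in aNSCs (log2 fold change -2.31 ± 0.20, adjusted p = 5.07e-06). Tcf7l2 was at 70.6, 156, 149 and 108 against 53.7, 71.2, 71.4 and 47.6 (log2 fold change -1.03 ± 0.13, adjusted p = 7.6e-05), with the P2 value of qNSCs inside the aNSC range. Tcf7 was higher in aNSCs (1.39 ± 0.39, adjusted p = 0.0101) at low levels of at most 5.69. Lef1 was too rare to be tested, with 9 UMIs in qNSCs and 41 in aNSCs, a ratio of levels of 5.49 (95% exact interval 2.63 to 12.8, counting error only). Beta-catenin transcripts (Ctnnb1) were at 165, 201, 263 and 119 in qNSCs and 361, 348, 413 and 249.5 in aNSCs (log2 fold change 0.85 ± 0.11, adjusted p = 9.81e-05). Apc (0.32 ± 0.13, adjusted p = 0.051), Axin1 (0.17 ± 0.12, adjusted p = 0.245) and Gsk3b (-0.03 ± 0.11, adjusted p = 0.8) were not called.

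The feedback genes did not move as a group. Nkd1, an inhibitor of Dishevelled, was at 5.19, 15.1, 17.4 and 18.7 CPM in qNSCs and 59.3, 38.9, 43.8 and 52.8 in aNSCs (log2 fold change 1.66 ± 0.26, adjusted p = 0.00033), with no overlap. Rnf43, a ligase that removes Frizzled receptors, was at 0.623, 1.38, 1.09 and 0 against 2.26, 7.84, 3.82 and 7.32 (log2 fold change 2.39 ± 0.41, adjusted p = 0.000556). Axin2, the most used readout of canonical signaling, was at 16.6, 55.3, 101 and 36.5 in qNSCs and 40.7, 62.0, 102 and 76.0 in aNSCs. Its difference missed the threshold (log2 fold change 0.44 ± 0.19, adjusted p = 0.0665), although it was higher in aNSCs in 4 of 4 libraries, by very little at P12 replicate 2. Notum (0.60 ± 0.41, adjusted p = 0.223), Znrf3 (-0.22 ± 0.12, adjusted p = 0.153) and Apcdd1 (0.27 ± 0.28, adjusted p = 0.427) were not called either. Dividing cells went with the aNSC gate, as the summed TAP markers Mki67, Top2a, Dll1 and Sp9 were at 923 to 1994 CPM in aNSCs and 6.65 to 26.7 in qNSCs. The qNSC gate itself leaves out cells with Mki67 or Top2a, and the part of division in these differences was not tested. Of the members higher in aNSCs, Wnt4, Fzd9, Nkd1 and Rnf43 were also higher in oligodendrocyte precursors than in qNSCs, as given below. The paper describes some activated NSCs that express Olig1/2, and the part of such cells in these differences was not tested either. In the further list of 62 pathway genes, 38 were tested, and 6 were higher and 20 lower, led by Ccnd1 (3.84 ± 0.23, adjusted p = 6.18e-07), a cyclin, and by the receptors Celsr1 (-1.41 ± 0.10, adjusted p = 1.38e-06) and Fzd6 (-1.503 ± 0.17, adjusted p = 4.02e-05).

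**Figure D2:**
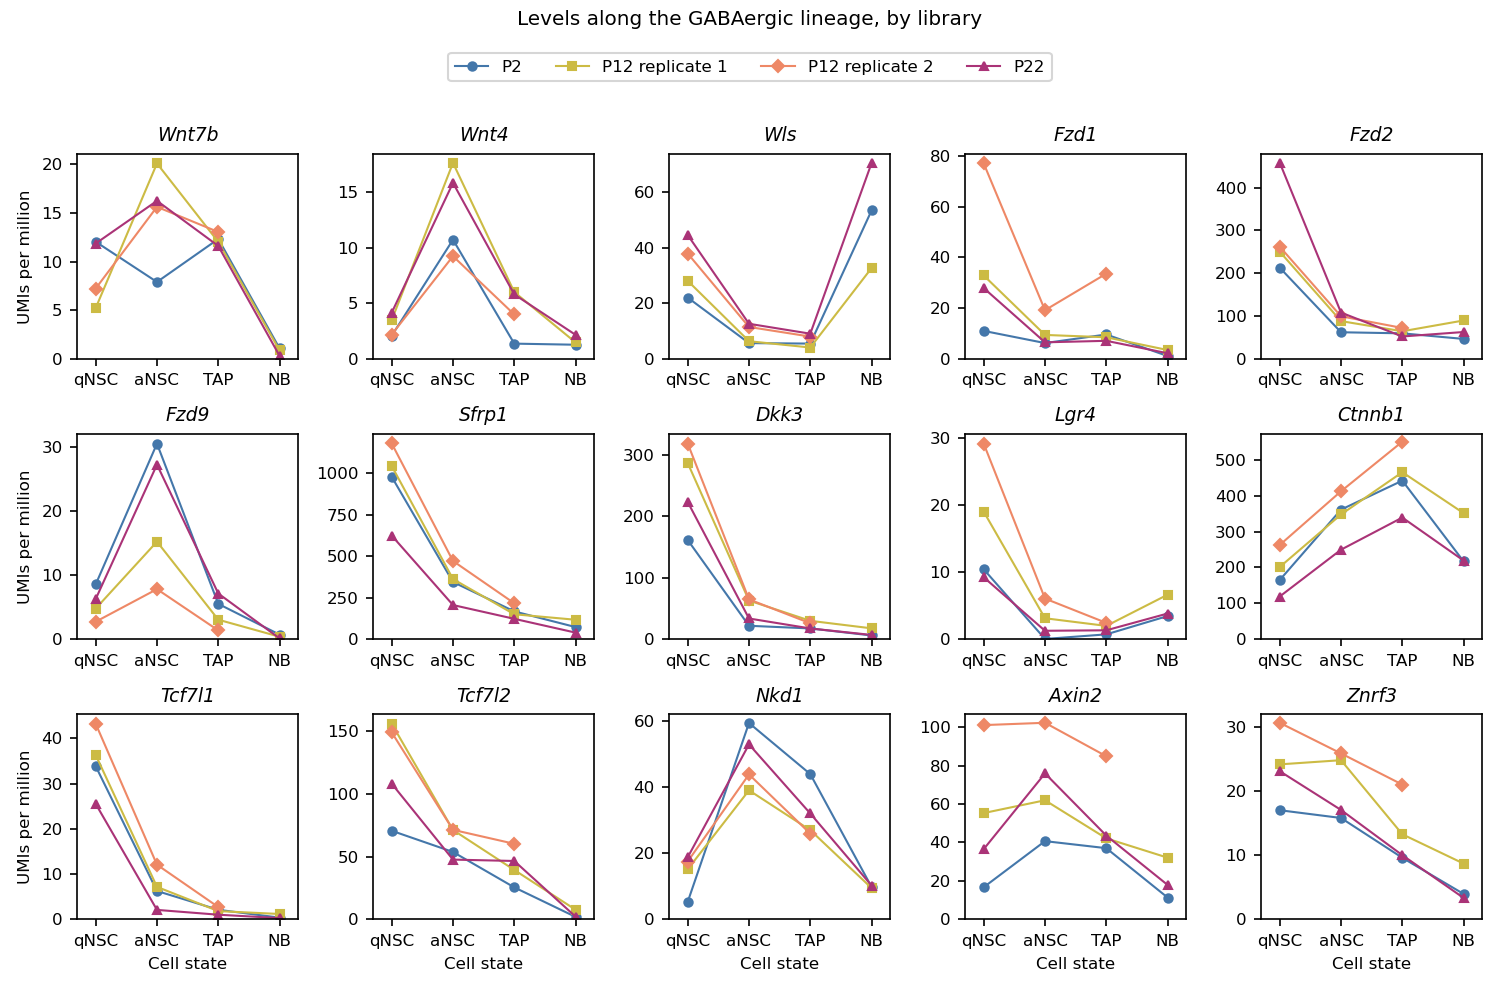
Levels of 15 members in CPM in qNSCs, aNSCs, TAPs and GABAergic neuroblasts, with 1 point per library. Sfrp1, Dkk3 and Fzd2 drop between qNSCs and aNSCs in all 4 libraries, Nkd1, Fzd9 and Wnt4 peak in aNSCs, and Wls drops in aNSCs and TAPs and is high again in neuroblasts.

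From aNSCs to TAPs Sfrp1 and Dkk3 went lower still, and several genes that were higher in aNSCs than in qNSCs were lower in TAPs. Of 28 members tested in 4 libraries, 4 were higher and 13 lower in TAPs, with 44.1% of all genes called (22.3% higher, 21.8% lower). The median of the members was -0.26, beside 0.01 for all genes. Sfrp1 was at 166, 149, 215 and 122 CPM in TAPs (log2 fold change -0.98 ± 0.08, adjusted p = 4.12e-08) and Dkk3 at 17.1, 29.5, 25.6 and 17.1 (log2 fold change -0.99 ± 0.12, adjusted p = 3.53e-06). Both were lower in TAPs than in aNSCs of every library, although the groups overlapped. Fzd9 was at 5.48, 3.01, 1.33 and 7.10 (log2 fold change -2.16 ± 0.20, adjusted p = 2.24e-07), Wnt4 at 1.37, 6.02, 3.99 and 5.81 (log2 fold change -1.44 ± 0.21, adjusted p = 3.35e-05) and Wnt5a at 4.80, 1.06, 0.533 and 2.58 (log2 fold change -1.81 ± 0.36, adjusted p = 0.000663), each below every aNSC value.

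Nkd1 was at 43.8, 26.9, 25.8 and 31.9 CPM in TAPs (log2 fold change -0.53 ± 0.10, adjusted p = 0.000302) and Fzd7 at 4.11, 11.3, 13.0 and 7.10 (log2 fold change -0.76 ± 0.16, adjusted p = 0.000849), with overlapping groups. Axin2 (-0.37 ± 0.10, adjusted p = 0.00636), Znrf3 (-0.55 ± 0.15, adjusted p = 0.00623), Fzd2 (-0.44 ± 0.11, adjusted p = 0.00263), Tcf7l2 (-0.42 ± 0.13, adjusted p = 0.0145), Wnt7a (-0.63 ± 0.21, adjusted p = 0.0196) and Apc (-0.20 ± 0.07, adjusted p = 0.0386) were lower too. The members that were higher in TAPs were Ctnnb1, at 443, 466, 552 and 339 (log2 fold change 0.49 ± 0.06, adjusted p = 8.6e-06), Gsk3b (0.27 ± 0.06, adjusted p = 0.00236), Fzd5 (0.55 ± 0.16, adjusted p = 0.0105) and Fzd1 (0.51 ± 0.19, adjusted p = 0.0385). Wnt7b (-0.32 ± 0.18, adjusted p = 0.158), Wls (-0.41 ± 0.20, adjusted p = 0.115), Notum (-0.11 ± 0.17, adjusted p = 0.63), Fzd3 (0.00 ± 0.07, adjusted p = 0.966) and Fzd8 (0.08 ± 0.20, adjusted p = 0.772) were not called. Rnf43, which was too rare to be tested here, had 173 UMIs in aNSCs and 6 in TAPs (ratio 0.0757, 95% exact interval 0.0274 to 0.168). DESeq2 called 10 of these members, and without the library block 3 were called. The other members, namely Axin1, Lrp5, Lrp6, Ryk, Tcf7 and Wnt5b, were tested and not called, and Wnt8b, Ror1, Ror2, Rspo2, Rspo3, the 3 Lgr receptors, Lef1, Tcf7l1 and Apcdd1 were not tested. In the further list 33 genes were tested, and 8 were higher and 7 lower, led by the corepressors Tle1 (1.37 ± 0.08, adjusted p = 5.24e-10) and Tle4 (-0.96 ± 0.09, adjusted p = 1.7e-07) and the kinase Tnik (-1.14 ± 0.11, adjusted p = 2.42e-07).

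GABAergic neuroblasts were compared with TAPs in P2, P12 replicate 1 and P22. Of 11 receptors tested 5 were lower in neuroblasts and 1 was higher, and the feedback genes that were called (Nkd1, Notum, Axin2 and Znrf3) were lower, whereas Wls and Wnt5a were higher. Of 32 members tested, 6 were higher and 16 lower, with 31.1% of all genes called (16.7% higher, 14.4% lower). The median of the members was -0.90, beside 0.03 for all genes tested. Wls was at 53.3, 32.6 and 70.4 CPM in neuroblasts and 5.48, 4.07 and 9.03 in TAPs (log2 fold change 3.16 ± 0.18, adjusted p = 0.000449). Wnt5a was at 24.1, 8.77 and 28.1 against 4.80, 1.06 and 2.58 (log2 fold change 3.08 ± 0.31, adjusted p = 0.00224). Neither gene's groups overlapped. The other members that were higher were Gsk3b, at 495, 579.5 and 509.8 in neuroblasts and 358, 385 and 338 in TAPs (log2 fold change 0.66 ± 0.11, adjusted p = 0.00857), Apc (0.75 ± 0.13, adjusted p = 0.00999), Lgr4 (1.87 ± 0.39, adjusted p = 0.0162) and Fzd3 (0.53 ± 0.16, adjusted p = 0.0488).

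Wnt7b was close to absent from neuroblasts, at 1.07, 0.868 and 0.309 CPM against 12.3, 12.0 and 11.6 in TAPs (log2 fold change -3.99 ± 0.43, adjusted p = 0.00273). Tcf7l2 was at 1.75, 7.47 and 1.94 against 25.3, 39.3 and 46.5 (log2 fold change -3.45 ± 0.44, adjusted p = 0.004), and Fzd5 at 0.993, 3.47 and 1.59 against 10.3, 15.9 and 19.4 (log2 fold change -2.90 ± 0.37, adjusted p = 0.00408). None of these 3 overlapped between states. Nkd1 was at 9.69, 9.38 and 10.1 in neuroblasts (log2 fold change -1.67 ± 0.21, adjusted p = 0.00372), below every TAP value. Notum was lower as well (-3.59 ± 0.45, adjusted p = 0.00568), with 0 UMIs at P2 in both states. Axin2 was at 11.2, 32.0 and 17.8 in neuroblasts (log2 fold change -0.99 ± 0.26, adjusted p = 0.0349), also below every TAP value. Fzd9 (-3.83 ± 0.68, adjusted p = 0.0104), Fzd1 (-1.82 ± 0.43, adjusted p = 0.024), Fzd7 (-1.54 ± 0.38, adjusted p = 0.0263), Tcf7 (-2.27 ± 0.50, adjusted p = 0.0194), Sfrp1 (-0.97 ± 0.24, adjusted p = 0.0287), Dkk3 (-1.104 ± 0.24, adjusted p = 0.0183), Ctnnb1 (-0.58 ± 0.15, adjusted p = 0.0308), Lrp5, Wnt5b and Znrf3 made up the rest of the lower members.

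Fzd2 (0.26 ± 0.18, adjusted p = 0.336), Fzd8 (-0.84 ± 0.28, adjusted p = 0.0663), Wnt7a (1.03 ± 0.34, adjusted p = 0.066), Wnt4 (-1.32 ± 0.44, adjusted p = 0.0653), Lef1 (0.50 ± 0.70, adjusted p = 0.628) and Apcdd1 (0.16 ± 0.44, adjusted p = 0.803) were not called, nor were Ror2, Ryk, Axin1 and Lrp6. The remaining 8 members (Wnt8b, Ror1, Rspo2, Rspo3, Lgr5, Lgr6, Tcf7l1 and Rnf43) were not tested. The share of neuroblasts with an Mki67 or Top2a UMI differed between libraries, at 25.5%, 89.4% and 39.5%, and its part in these differences was not tested. P22 decided much of the count: without it 6 members were called, 2 higher and 4 lower. In the further list 36 genes were tested, and 11 were higher and 6 lower, with Ccnd1 (-4.52 ± 0.13, adjusted p = 9.82e-05), the secreted inhibitor Sfrp4 (6.61 ± 0.60, adjusted p = 0.00176) and the corepressor Tle2 (5.15 ± 0.51, adjusted p = 0.00224) having the smallest adjusted p.

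Pallial and subpallial qNSCs, told apart by dorsal transcription factors (Emx1, Neurod1, Neurod6, Neurog2, Tbr1) and ventral ones with Gad1 (Gsx2, Dlx6, Dlx5, Sp9, Dlx2), differed most in Wnt7b. The gates held 72 to 650 pallial and 74 to 136 subpallial qNSCs per library. Wnt7b was at 4.13, 2.08, 1.09 and 1.71 CPM in pallial and 18.8, 15.1, 29.995 and 13.7 in subpallial qNSCs (log2 fold change -3.33 ± 0.38, adjusted p = 5.53e-05). In each library the subpallial value was at least 4-fold the pallial one, and the groups did not overlap. Of 24 members tested, 1 was higher and 4 lower in pallial qNSCs, with 6.81% of all genes called (2.74% higher, 4.07% lower). The median of the members was -0.02, beside 0.01 for all genes.

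The gene that was higher in pallial qNSCs was Sfrp1, at 1039, 1081, 1374 and 837 CPM against 862, 733, 571 and 485 in subpallial ones (log2 fold change 0.72 ± 0.11, adjusted p = 0.00076). It was higher in 4 of 4 libraries. Fzd5 was at 4.72, 39.4, 51.4 and 36.0 in pallial and 25.01, 68.2, 109 and 46.8 in subpallial qNSCs (log2 fold change -0.99 ± 0.17, adjusted p = 0.00123), Tcf7l2 at 60.1, 146, 139 and 82.2 against 92.01, 201, 188 and 113 (log2 fold change -0.48 ± 0.09, adjusted p = 0.00294), and Lgr4 at 8.25, 17.0, 20.6 and 3.42 against 13.4, 24.4, 55.3 and 10.7 (log2 fold change -1.01 ± 0.22, adjusted p = 0.00885). These 3 were lower in the pallial cells of every library, although the groups overlapped across libraries. Without P12 replicate 2, 3 members were called, and Fzd5 and Lgr4 were not. Without the library block Wnt7b alone was called.

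No other ligand or receptor passed the test between the regions. Wnt7a was at 23.6, 8.97, 14.8 and 6.85 CPM in pallial and 26.8, 17.2, 22.1 and 10.7 in subpallial qNSCs (log2 fold change -0.56 ± 0.22, adjusted p = 0.165). Wls (0.05 ± 0.15, adjusted p = 0.932), Fzd1 (0.06 ± 0.14, adjusted p = 0.889), Fzd2 (-0.04 ± 0.08, adjusted p = 0.863), Fzd3 (0.05 ± 0.09, adjusted p = 0.852), Fzd7 (0.04 ± 0.18, adjusted p = 0.961) and Fzd8 (-0.26 ± 0.18, adjusted p = 0.509) were not called. Neither were Axin2 (0.23 ± 0.14, adjusted p = 0.432), Nkd1 (-0.54 ± 0.23, adjusted p = 0.211), Tcf7l1 (-0.32 ± 0.14, adjusted p = 0.25), Dkk3, Ctnnb1, Lrp5, Lrp6, Ryk, Znrf3, Apc, Axin1 and Gsk3b. The other 16 members were too rare to be tested. Among them, Wnt5b had 49 UMIs in pallial and 3 in subpallial qNSCs, a ratio of levels of 5.59 (95% exact interval 1.80 to 28.0, counting error only). Wnt5a had 24 and 2 UMIs (ratio 4.10, interval 1.02 to 35.8).

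Other markers moved with the region. In pallial qNSCs the summed astrocyte markers Agt, Slc6a11 and Gja1 were lower in 4 of 4 libraries (243.5 to 1222 against 360.0 to 1777 CPM), as were the ependymal markers Tekt1 and Cfap126 (11.8 to 34.9 against 38.0 to 46.5). The neuroblast markers Tubb3, Stmn2, Dlx6os1 and Sox11 summed to 129 to 146 in pallial and 109 to 648 in subpallial qNSCs, with none at 0. Wnt7b itself stood at 23.4 to 42.1 in astrocytes and at 1.07, 0.868 and 0.309 in neuroblasts. The part of such cells in the regional difference was not tested. In the further list 28 genes were tested, with Vangl2, a planar polarity protein, higher (0.45 ± 0.11, adjusted p = 0.015) and Tle1 lower (-0.44 ± 0.11, adjusted p = 0.0197).

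**Figure D3:**
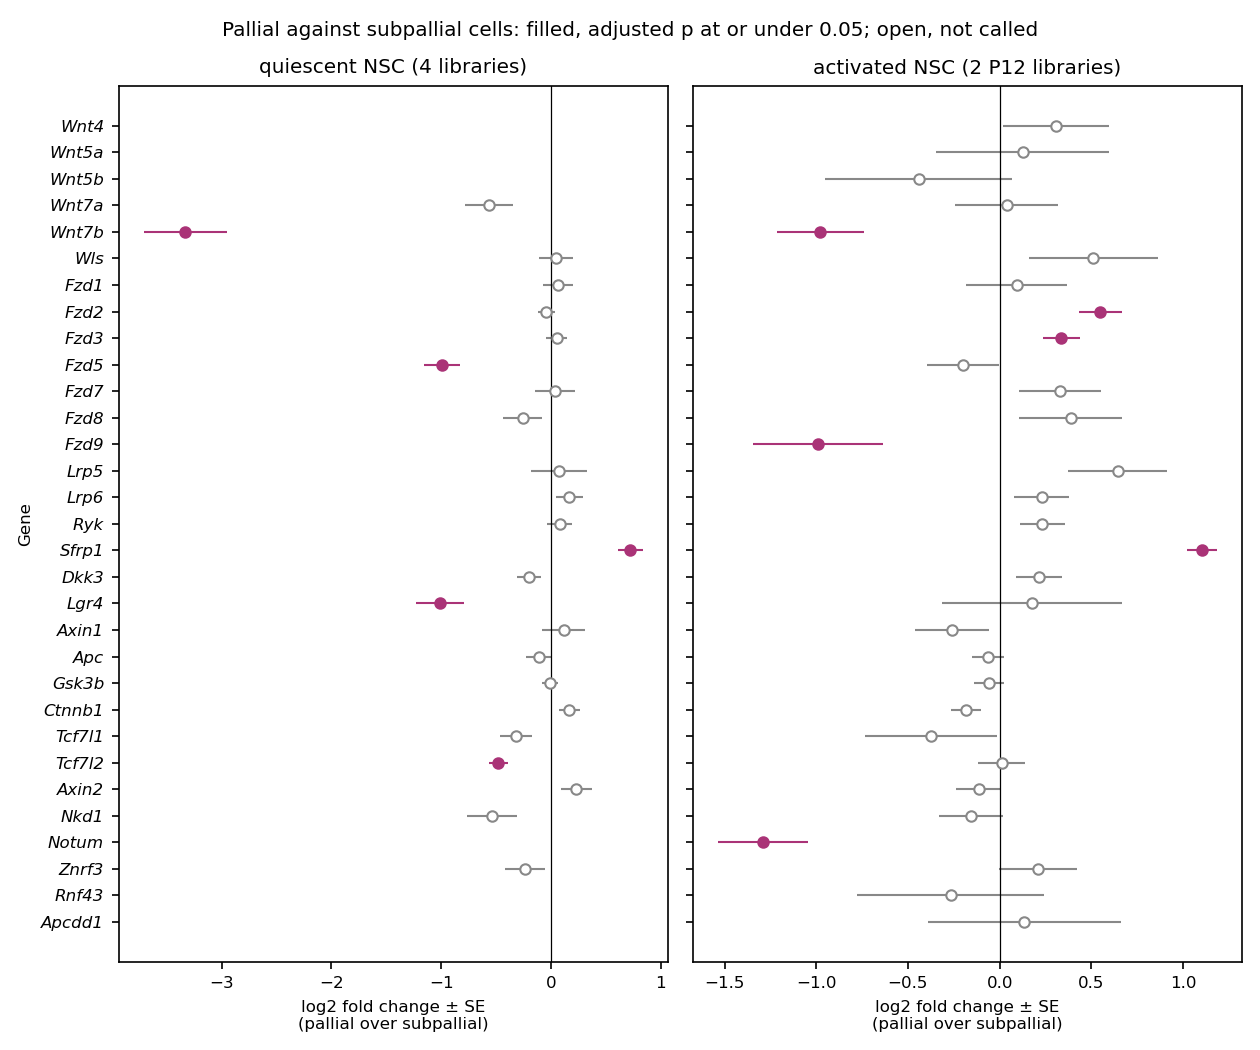
Log2 fold change, pallial over subpallial, of the members tested in qNSCs (4 libraries) and aNSCs (P12 replicates 1 and 2), with bars for the standard error and filled points where the adjusted p was at most 0.05. Wnt7b lies below 0 and Sfrp1 above 0 in both states.

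In aNSCs the regional comparison rested on P12 alone, since the P2 and P22 libraries held too few cells of each region. The pallial gate held 188 and 196 cells and the subpallial gate 84 and 65. Of 31 members tested, 3 were higher and 3 lower in pallial aNSCs, with 11.6% of all genes called (6.12% higher, 5.44% lower), and their median was 0.09 beside -0.01 for all genes. Sfrp1 was at 494 and 705 CPM in pallial and 267 and 275 in subpallial aNSCs (log2 fold change 1.102 ± 0.08, adjusted p = 8.49e-37). Fzd2 was at 106 and 111 against 71.5 and 73.8 (log2 fold change 0.55 ± 0.12, adjusted p = 0.000112), and Fzd3 at 139.5 and 177 against 107 and 138 (log2 fold change 0.34 ± 0.10, adjusted p = 0.0116). All 3 were higher in pallial cells in both libraries.

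Lower in pallial aNSCs were Wnt7b, at 19.1 and 10.8 against 32.1 and 24.4 CPM (log2 fold change -0.98 ± 0.24, adjusted p = 0.00088), and Notum, a secreted enzyme that inactivates Wnt ligands, at 8.47 and 14.9 against 23.0 and 33.1 (log2 fold change -1.29 ± 0.25, adjusted p = 7.81e-06). Fzd9 was at 9.99 and 3.83 against 11.5 and 13.6 (log2 fold change -0.99 ± 0.35, adjusted p = 0.0462). None of the 6 called genes overlapped between the regions. Fzd5 (-0.20 ± 0.20, adjusted p = 0.616), Tcf7l2 (0.01 ± 0.13, adjusted p = 0.973) and Lgr4 (0.18 ± 0.49, adjusted p = 0.889), called in qNSCs, were not called in aNSCs, and the difference between the states was not tested. Wnt7a (0.04 ± 0.28, adjusted p = 0.962), Wls (0.51 ± 0.35, adjusted p = 0.413), Axin2 (-0.11 ± 0.12, adjusted p = 0.648), Nkd1 (-0.16 ± 0.17, adjusted p = 0.669), Apcdd1 (0.13 ± 0.53, adjusted p = 0.926), Tcf7l1 (-0.37 ± 0.36, adjusted p = 0.606), Fzd1 (0.09 ± 0.27, adjusted p = 0.897), Fzd7 (0.33 ± 0.22, adjusted p = 0.403) and Fzd8 (0.39 ± 0.28, adjusted p = 0.45) were not called either. The other tested members without a call were Lrp5, Lrp6, Ryk, Ctnnb1, Dkk3, Axin1, Apc, Gsk3b, Wnt4, Wnt5a, Wnt5b, Znrf3 and Rnf43, and 9 members were not tested.

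These calls depended on the model. Without the library block, edgeR's quasi-likelihood test called 0 of the 6, as did 1 fit over all states, against 8 members at an unadjusted p under 0.05 in the blocked fit, and DESeq2 called Sfrp1 alone. Maturation also went with region: the 5 qNSC markers Aldoc, Id3, Clu, Thbs4 and Apoe were each higher in pallial aNSCs of both libraries, summing to 5217 to 5879 CPM against 2975 to 3410 in subpallial ones, and the TAP markers summed to 1066 to 1480 against 1458 to 2051. Their part in the regional values was not tested. Of 31 further genes tested, 5 were higher and 1 lower, with the atypical cadherins Celsr1 (0.76 ± 0.14, adjusted p = 2.21e-06) and Celsr2 (0.77 ± 0.15, adjusted p = 1.9e-05) and the receptor Fzd6 (1.34 ± 0.35, adjusted p = 0.00257) having the smallest adjusted p.

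Glutamatergic-lineage cells, gated on at least 2 of Eomes, Neurog2, Neurod1, Neurod2, Neurod6 and Tbr1 without GABAergic genes, numbered 194, 104, 132 and 33. They were set against GABAergic-lineage cells (2435, 1040, 145 and 2535), which can include the TAPs and neuroblasts described above. Of 28 members tested, 2 were higher and 0 lower in the glutamatergic lineage by edgeR, with 3.84% of all genes called (2.54% higher, 1.3% lower), and 6 members had an unadjusted p under 0.05. The medians of the members and of all genes were both -0.04.

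Sfrp1 was at 258, 412, 636 and 331 CPM in the glutamatergic and 119, 136, 259.8 and 58.3 in the GABAergic lineage (log2 fold change 1.47 ± 0.21, adjusted p = 0.0205), higher in 4 of 4 libraries. Wnt5b was at 6.81, 8.20, 7.78 and 4.87 against 2.33, 2.86, 2.34 and 1.52 (log2 fold change 1.48 ± 0.28, adjusted p = 0.0408), the groups not overlapping. Wnt7b had the largest fold change, at 61.7, 17.9, 14.2 and 39.0 against 1.87, 5.13, 15.3 and 1.94, but was slightly lower in the glutamatergic lineage at P12 replicate 2 and was not called (log2 fold change 2.59 ± 0.93, adjusted p = 0.174). Wnt5a was at 2.13, 3.07, 3.22 and 0 against 17.5, 4.75, 3.62 and 19.4 and missed the threshold although the groups did not overlap (log2 fold change -1.73 ± 0.64, adjusted p = 0.183). Axin2 (-0.54 ± 0.16, adjusted p = 0.118), Wnt7a (-1.48 ± 0.88, adjusted p = 0.37), Wls (-1.70 ± 0.71, adjusted p = 0.226), Notum (-1.19 ± 0.83, adjusted p = 0.438), Nkd1 (-0.89 ± 0.42, adjusted p = 0.275), Tcf7l2 (-0.37 ± 0.18, adjusted p = 0.29) and Lgr4 (-1.02 ± 0.57, adjusted p = 0.345) were not called. Fzd1 (-1.045 ± 0.45, adjusted p = 0.234), Fzd2 (-0.22 ± 0.21, adjusted p = 0.569), Fzd3 (0.26 ± 0.11, adjusted p = 0.238), Fzd5 (-1.047 ± 0.45, adjusted p = 0.231), Fzd7 (1.02 ± 0.39, adjusted p = 0.195) and Fzd8 (-0.02 ± 0.29, adjusted p = 0.983) were not called either. The remaining 11 tested members (Wnt4, Lrp5, Lrp6, Ryk, Dkk3, Axin1, Apc, Gsk3b, Ctnnb1, Tcf7 and Znrf3) had no call, and 12 members were not tested.

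The maturity of both lineages differed between libraries. The summed TAP markers ran from 61.7 to 3158 CPM in the glutamatergic and from 1285 to 3179 in the GABAergic lineage, and their part in these values was not tested. Without P12 replicate 1 or without P22 edgeR called 0 members, without P2 it called 1, and DESeq2 over all libraries called 4. In the further list 35 genes were tested, and 5 were higher and 2 lower, led by Tnik (1.73 ± 0.18, adjusted p = 0.00761), Celsr2 (1.18 ± 0.13, adjusted p = 0.00858) and Celsr1 (2.25 ± 0.29, adjusted p = 0.0142).

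Ependymal cells, the ciliated cells that line the ventricle, had enough cells (101 and 191) only at P12. Of the cells in this gate, 32.7% and 13.6% had an Mki67 or Top2a UMI. Such cells are left out by the qNSC gate, and the part of division in the differences was not tested. Against qNSCs of the same libraries, 3 of 33 members tested were higher and 5 lower, with 22.6% of all genes called (13.6% higher, 8.97% lower), and their median was -0.15 beside -0.02 for all genes. Wnt4 was at 32.9 and 14.8 CPM in ependymal cells against 3.48 and 2.19 in qNSCs (log2 fold change 2.98 ± 0.29, adjusted p = 4.86e-06), and Wnt5a at 6.33 and 5.54 against 1.32 and 1.60 (log2 fold change 1.96 ± 0.48, adjusted p = 0.0097). Fzd3, a receptor of planar cell polarity, was at 184 and 245 against 137 and 177 (log2 fold change 0.42 ± 0.09, adjusted p = 0.0048). These were the members with higher levels, in both libraries and without overlap.

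Sfrp1 was at 531 and 566 CPM in ependymal cells against 1045 and 1181 in qNSCs (log2 fold change -1.052 ± 0.10, adjusted p = 3.35e-06). Fzd7 was at 12.7 and 16.6 against 29.4 and 32.7 (log2 fold change -1.08 ± 0.17, adjusted p = 0.00054), Dkk3 at 189 and 225 against 287 and 318 (log2 fold change -0.57 ± 0.10, adjusted p = 0.000661), Fzd2 at 168 and 186 against 251 and 262 (log2 fold change -0.56 ± 0.09, adjusted p = 0.00074) and Axin2 at 50.7 and 64.4 against 55.3 and 101 (log2 fold change -0.48 ± 0.13, adjusted p = 0.0142). All 5 were lower in both libraries, but Axin2 overlapped. Wnt7a (-0.34 ± 0.21, adjusted p = 0.292), Wnt7b (-0.02 ± 0.35, adjusted p = 0.981), Wls (0.34 ± 0.15, adjusted p = 0.117), Nkd1 (0.36 ± 0.19, adjusted p = 0.209), Notum (0.92 ± 0.40, adjusted p = 0.121), Lgr4 (-0.31 ± 0.17, adjusted p = 0.227), Tcf7l1 (-0.26 ± 0.15, adjusted p = 0.251), Tcf7l2 (-0.12 ± 0.11, adjusted p = 0.478) and Apcdd1 (-0.96 ± 0.64, adjusted p = 0.327) were not called. Neither were Fzd1 (-0.27 ± 0.12, adjusted p = 0.139), Fzd5 (-0.00 ± 0.12, adjusted p = 0.987), Fzd8 (-0.04 ± 0.16, adjusted p = 0.908) and Fzd9 (-0.07 ± 0.45, adjusted p = 0.932), nor the other 12 members tested, and 7 were not tested. The ependymal gate was close to qNSCs in their summed markers (17699 to 18824 against 19325 to 22969), and it held 323 to 352 CPM of Tekt1 and Cfap126 against 26.8 to 32.3. Of 38 further genes tested, 2 were higher and 3 lower, led by the secreted inhibitor Sfrp5 (2.94 ± 0.37, adjusted p = 6.01e-05), Vangl2 (-0.53 ± 0.10, adjusted p = 0.00239) and the Nkd1 relative Nkd2 (3.36 ± 0.68, adjusted p = 0.00291).

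Astrocytes, gated on S100b and Aqp4, had 50 and 72 cells at P12 and 31 at P22, and were compared with qNSCs of the same libraries. They stood out by higher Wnt7a and Wnt7b and lower Sfrp1 and Fzd5. Of 25 members tested, 6 were higher and 6 lower, with 27% of all genes called (13.6% higher, 13.4% lower), and the median of the members was -0.02 beside -0.01. Wnt7a was at 50.1, 51.7 and 36.5 CPM in astrocytes against 12.0, 20.9 and 11.3 in qNSCs (log2 fold change 1.72 ± 0.23, adjusted p = 1.53e-06), and Wnt7b at 23.4, 28.2 and 42.1 against 5.22, 7.23 and 11.9 (log2 fold change 2.07 ± 0.30, adjusted p = 5.38e-06). Znrf3, which like Rnf43 removes Frizzled receptors, was at 61.7, 64.9 and 58.9 against 24.2, 30.7 and 23.1 (log2 fold change 1.32 ± 0.19, adjusted p = 5.09e-06), and Lgr4 at 46.7, 48.9 and 58.9 against 19.0, 29.1 and 9.20 (log2 fold change 1.38 ± 0.26, adjusted p = 0.000125). None of these 4 overlapped between the cell types.

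Fzd9 was also higher in astrocytes, at 31.7, 6.58 and 28.1 CPM against 4.74, 2.69 and 6.23 (log2 fold change 2.28 ± 0.40, adjusted p = 6.4e-05), as was Ryk, a receptor-like kinase (0.51 ± 0.15, adjusted p = 0.0136). Sfrp1 was at 247, 190.0 and 95.4 against 1045, 1181 and 624 (log2 fold change -2.36 ± 0.15, adjusted p = 8.47e-13), Fzd5 at 13.4, 10.3 and 2.81 against 43.5, 63.2 and 41.5 (log2 fold change -2.33 ± 0.29, adjusted p = 3.64e-07) and Ctnnb1 at 107, 106 and 39.3 against 201, 263 and 119 (log2 fold change -1.12 ± 0.15, adjusted p = 1.05e-06). All 3 were lower in every library without overlap. Fzd8 (-1.18 ± 0.32, adjusted p = 0.00602), Fzd3 (-0.53 ± 0.15, adjusted p = 0.00753) and Dkk3 (-0.35 ± 0.13, adjusted p = 0.0459) were lower too. Axin2 (-0.27 ± 0.19, adjusted p = 0.313), Nkd1 (0.42 ± 0.29, adjusted p = 0.308), Wls (0.37 ± 0.21, adjusted p = 0.221), Tcf7l1 (-0.53 ± 0.24, adjusted p = 0.11), Tcf7l2 (0.30 ± 0.13, adjusted p = 0.0821), Fzd1 (0.06 ± 0.19, adjusted p = 0.952), Fzd2 (-0.10 ± 0.16, adjusted p = 0.689) and Fzd7 (-0.30 ± 0.27, adjusted p = 0.456) were not called, and neither were Lrp5, Lrp6, Axin1, Apc and Gsk3b. The P22 value of Fzd7 rests on 31 cells, as does that of Fzd2, which lay at 623 against 151 and 210 at P12. Of the 15 untested members, Notum was at 5.01, 0.941 and 2.81 CPM in astrocytes against 4.08, 4.21 and 49.5 in qNSCs, higher in astrocytes at P12 replicate 1 and lower in the other 2 libraries. In the further list 35 genes were tested, and 6 were higher and 4 lower, led by Tnik (1.07 ± 0.14, adjusted p = 5.04e-07), Tle4 (0.99 ± 0.12, adjusted p = 5.06e-07) and Tle3 (-1.49 ± 0.19, adjusted p = 6.72e-07).

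OPCs had 177, 112 and 209 cells at P2, P12 replicate 1 and P22 and 2 cells at P12 replicate 2, which was left out. Compared with qNSCs, they had lower levels of Fzd1, Fzd2, Fzd5, Fzd7, Fzd8, Sfrp1 and Dkk3 and higher levels of Rnf43, Nkd1, Wnt4 and Fzd9. An Mki67 or Top2a UMI was present in 38.4%, 79.5% and 36.4% of the OPCs. The qNSC gate leaves out such cells, and the part of division in these differences was not tested. Of 28 members tested, 4 were higher and 11 lower, with 44% of all genes called (21% higher, 23% lower), and the median of the members was -0.73 beside -0.01 for all genes. Rnf43 was at 17.0, 30.9 and 41.2 CPM in OPCs against 0.623, 1.38 and 0 in qNSCs (log2 fold change 4.86 ± 0.55, adjusted p = 0.000771), Nkd1 at 29.0, 55.3 and 63.6 against 5.19, 15.1 and 18.7 (log2 fold change 1.77 ± 0.23, adjusted p = 0.00139), Wnt4 at 6.29, 44.6 and 84.6 against 2.08, 3.48 and 4.15 (log2 fold change 3.21 ± 0.47, adjusted p = 0.00205) and Fzd9 at 18.9, 13.6 and 42.3 against 8.52, 4.74 and 6.23 (log2 fold change 1.55 ± 0.34, adjusted p = 0.0107). All 4 were higher in every library without overlap.

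Sfrp1 was at 66.0, 65.2 and 38.1 CPM in OPCs against 979, 1045 and 624 in qNSCs (log2 fold change -4.21 ± 0.18, adjusted p = 7.6e-05), and Dkk3 at 5.75, 20.2 and 9.78 against 161, 287 and 223 (log2 fold change -4.58 ± 0.26, adjusted p = 9.88e-05). Among receptors, Fzd5 was at 0, 2.89 and 1.40 (log2 fold change -4.88 ± 0.47, adjusted p = 0.000433), Fzd2 at 15.6, 42.5 and 13.3 (log2 fold change -3.99 ± 0.50, adjusted p = 0.00117) and Fzd7 at 3.01, 5.36 and 1.048 (log2 fold change -2.69 ± 0.33, adjusted p = 0.00104), all below every qNSC value. Fzd1 (-1.84 ± 0.25, adjusted p = 0.00155), Fzd8 (-2.75 ± 0.39, adjusted p = 0.00186), Lgr4 (-2.25 ± 0.36, adjusted p = 0.00306), Tcf7l1 (-2.58 ± 0.31, adjusted p = 0.000975), Tcf7l2 (-0.93 ± 0.18, adjusted p = 0.00665) and Znrf3 (-1.33 ± 0.28, adjusted p = 0.00919) were lower as well. Axin2 (-0.62 ± 0.25, adjusted p = 0.0844), Wls (-0.83 ± 0.31, adjusted p = 0.0706), Wnt7a (-0.86 ± 0.31, adjusted p = 0.0654), Wnt7b (0.72 ± 0.59, adjusted p = 0.361) and Fzd3 (-0.57 ± 0.21, adjusted p = 0.067) were not called, nor were Wnt5b, Lrp5, Lrp6, Ryk, Axin1, Apc, Gsk3b and Ctnnb1. Lgr5 was among the 12 untested members, with 59 UMIs in OPCs against 6 in qNSCs (ratio 27.3, 95% exact interval 11.8 to 77.4), and stood at 2.19, 11.1 and 8.39 CPM in the 3 libraries. Of 36 further genes tested, 7 were higher and 9 lower, led by Celsr1 (-4.46 ± 0.25, adjusted p = 9.7e-05), the glypican Gpc4 (-4.55 ± 0.39, adjusted p = 0.0003) and Fzd6 (-4.79 ± 0.42, adjusted p = 0.000309).

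Committed oligodendrocytes (with Gpr17 or Enpp6 and without Pdgfra) had 167 cells at P22 and fewer than 20 elsewhere, so that no test was made. In that library Tcf7l2, a factor known from oligodendrocyte maturation, was at 403 CPM (95% exact interval 384 to 422), against 72.7 (63.1 to 83.3) in OPCs. Wls was at 191 (178 to 204) against 44.7 (37.3 to 53.2). Rnf43 stood at 11.7 (8.73 to 15.4) against 41.2 (34.1 to 49.4). The first pair was higher and Rnf43 lower in committed cells of this library beyond counting error, which is the only error these intervals cover.

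Endothelial cells were few, with 12 and 29 at P12 and under 10 in the other libraries. The planned minimum of 20 cells left 1 library, and a comparison with at least 10 cells, chosen after the data were seen, used both P12 libraries. The nuclear factors Lef1 and Tcf7 and the feedback genes Apcdd1, Notum and Nkd1 were higher in these cells, whereas Tcf7l2 was lower and Tcf7l1, Axin2 and Znrf3 were not called. Of 34 members tested, 8 were higher and 10 lower than in qNSCs, with 30.6% of all genes called (13.5% higher, 17.1% lower). No median is given, since Wnt7b, Fzd7, Ror2 and Rspo3 had 0 UMIs in endothelial cells. Lef1 was at 303 and 281 CPM in endothelial cells and 0.180 and 0 in qNSCs, or 177 UMIs against 3. The ratio of these levels was 2717 with a 95% exact interval of 915 to 13299.7 (counting error only). Tcf7 was at 83.5 and 100.4 against 1.02 and 1.60 (log2 fold change 6.13 ± 0.63, adjusted p = 1.21e-20).

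Apcdd1, a membrane inhibitor of Wnt signaling known from brain vessels, was at 121 and 149.6 CPM against 2.34 and 2.44 in qNSCs (log2 fold change 5.85 ± 0.41, adjusted p = 1.01e-44). Notum was at 106 and 105 against 4.08 and 4.21 (log2 fold change 4.68 ± 0.45, adjusted p = 4.44e-23), and Nkd1 at 189.7 and 174 against 15.1 and 17.4 (log2 fold change 3.48 ± 0.32, adjusted p = 6.24e-26). All 3 targets were higher in both libraries without overlap. Wls (1.94 ± 0.32, adjusted p = 2.9e-08), Ctnnb1 (1.37 ± 0.31, adjusted p = 6.25e-05) and Wnt5a (4.18 ± 0.96, adjusted p = 8.92e-05) were higher too. Axin2 was at 121 and 137 against 55.3 and 101 and was not called (log2 fold change 0.71 ± 0.29, adjusted p = 0.0515). Sfrp1 was at 15.2 and 63.5 against 1045 and 1181 (log2 fold change -4.57 ± 0.45, adjusted p = 7.44e-23), and Dkk3 (-4.33 ± 0.44, adjusted p = 7.78e-21), Fzd1 (-1.60 ± 0.47, adjusted p = 0.00365), Fzd2 (-3.51 ± 0.41, adjusted p = 1.44e-16), Fzd3 (-2.83 ± 0.40, adjusted p = 2e-11), Fzd5 (-2.60 ± 0.56, adjusted p = 2.99e-05) and Tcf7l2 (-0.83 ± 0.31, adjusted p = 0.0275) were lower.

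Few or no UMIs of some members were found in endothelial cells. Wnt7a had 1 UMI there against 448 in qNSCs and was called lower, with a ratio of levels of 0.103 (95% exact interval 0.0026 to 0.576). Wnt7b had 0 UMIs against 173, at least 1.25-fold lower with a floor of 3 UMIs over the group, and was not called. Fzd7 had 0 against 879, at least 6.36-fold lower, and Lgr4 2 against 662 (ratio 0.139, interval 0.0168 to 0.505), both called. Fzd8, Fzd9, Lrp5, Lrp6, Ryk, Ror2, Rspo3, Znrf3, Wnt4, Wnt5b, Axin1, Apc, Gsk3b and Tcf7l1 were tested and not called, and Wnt8b, Ror1, Rspo2, Lgr5, Lgr6 and Rnf43 were not tested. Of 39 further genes tested, 7 were higher and 12 lower, led by Ccnd1 (5.09 ± 0.31, adjusted p = 4.23e-58), Fzd6 (2.99 ± 0.30, adjusted p = 1.29e-21) and Adgra2 (7.73 ± 0.88, adjusted p = 7.83e-17), a coreceptor for Wnt7 ligands. The summed endothelial markers Cldn5 (also in the gate), Slco1a4 and Itm2a were at 5728 to 9537 CPM in these cells and 11.3 to 11.6 in qNSCs. The 5 qNSC markers summed to 1783 to 2803 there against 19325 to 22969 in qNSCs, and 8.33% and 13.8% of these cells were among the highest doublet scores, whose part in the low values was not tested.

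**Figure D4:**
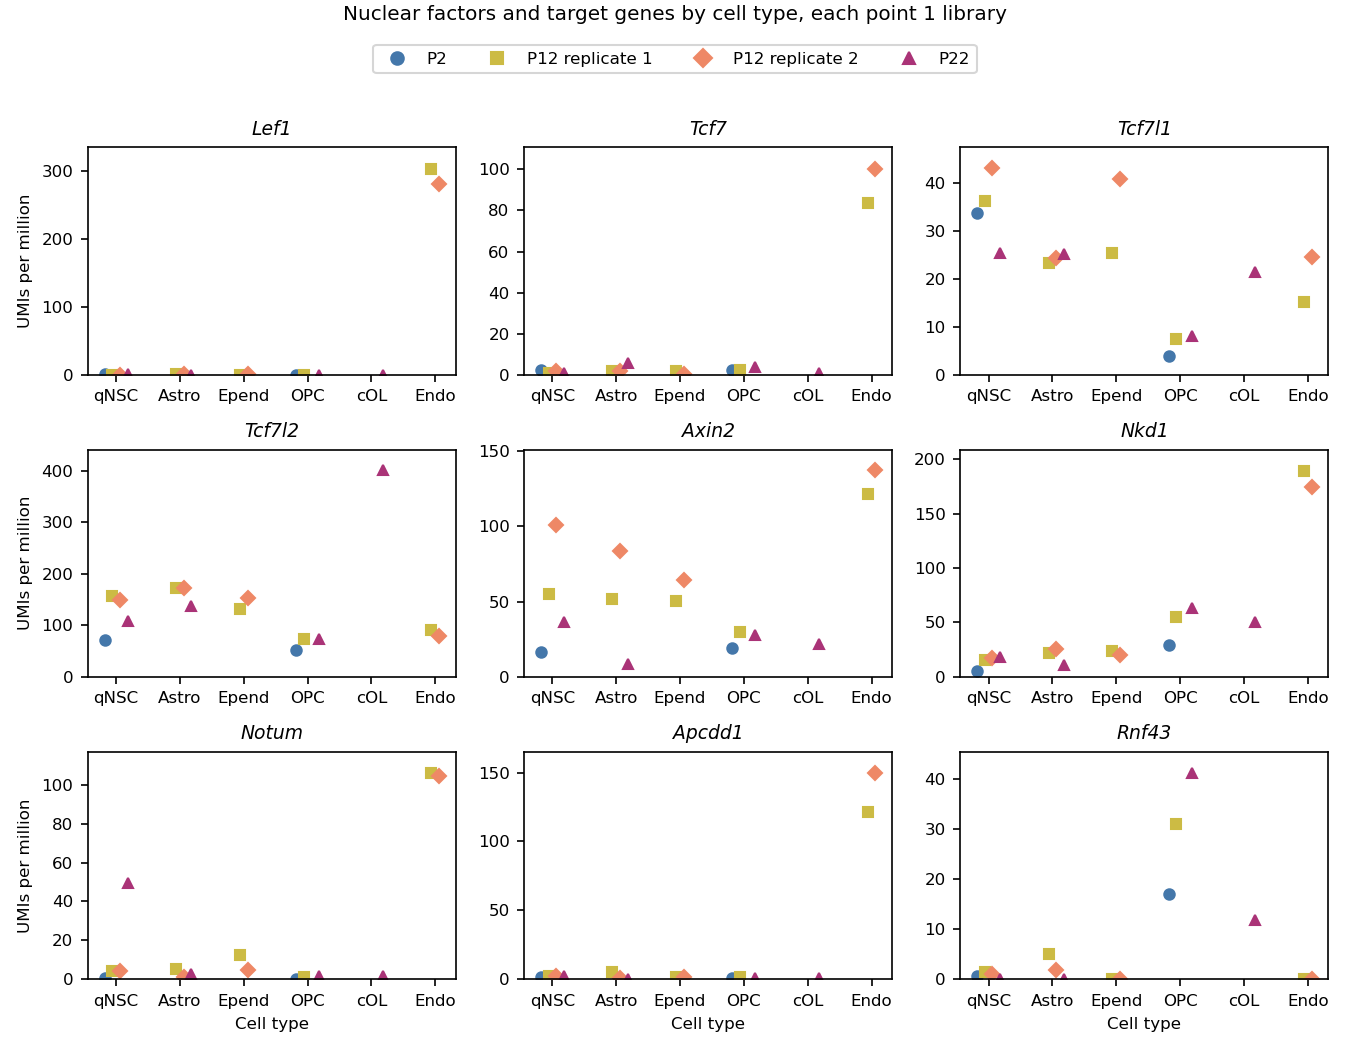
Levels of 9 members in CPM in qNSCs, astrocytes, ependymal cells, OPCs, committed oligodendrocytes and endothelial cells, with 1 point per library that had at least 20 cells of the type (10 for endothelial cells). Among these, endothelial points lie above all others for Lef1, Tcf7, Apcdd1, Notum and Nkd1, nearest for Notum to the qNSC point of P22 (49.5 CPM), while Tcf7l2 is highest in committed oligodendrocytes.

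With age, Notum changed most. In qNSCs it was at 0.623, 4.08, 4.21 and 49.5 CPM at P2, P12 replicates 1 and 2 and P22, or 3 UMIs at P2 and 167 at P22, a ratio of levels of 79.5 (95% exact interval 26.7 to 389). In aNSCs it was at 0, 7.20, 17.4 and 30.1, at least 17.7-fold higher at P22 than at P2, and in TAPs at 0, 7.61, 15.4 and 21.3, at least 10.4-fold higher, with a floor of 3 UMIs for the P2 library in both. In all 3 states both P12 values lay between those of P2 and P22. At P22 the subpallial qNSCs held 52.7 (39.6 to 68.7) and the pallial ones 12.0 (4.82 to 24.7). Shares of qNSCs with a Notum UMI were 0.952% at P2 (95% exact interval 0.197 to 2.76), 2.62% (1.93 to 3.48) and 3.05% (2.08 to 4.31) at P12 and 16.1% (12.6 to 20.2) at P22. With cells thinned to 5000 UMIs they were 0.319%, 1.58%, 1.42% and 12.5%. In neuroblasts the share was 0% at P2, which allows up to 0.159% of cells with a UMI at 3 counts, then 0.774% at P12 replicate 1 and 1.01% at P22, at median depths of 11282.5, 22218 and 10758 UMIs against 15491, 9281.5, 11830 and 8131.5 in qNSCs.

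Across members, 13 of 35 in qNSCs differed by more than 2-fold between P22 and P2 after trimmed-mean scaling, 8 higher and 5 lower at P22. Among all genes 20.4% did, 11% higher and 9.43% lower, and 4.88% differed as much between the P12 replicates, as did 1 member (Fzd1). In aNSCs 12 of 35 did (8 higher, 4 lower), with 17.3% of all genes (9.95% and 7.32%, and 4.65% between the P12 replicates, as did 3 members). In TAPs 5 of 29 did (3 higher, 2 lower), with 10.3% of all genes (6.06% and 4.27%, and 5.62% between the P12 replicates, as did 2 members). The median log2 difference of the members was -0.21 in qNSCs, 0.03 in aNSCs and -0.10 in TAPs, beside -0.04, -0.01 and 0.01 for all genes. With 1 library at each end these are differences between libraries, and sex cannot be told apart from age. The Cell Ranger version was the same at both ends and differed at P12.

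In qNSCs, 8 of the 13 had at least 20 UMIs over both libraries. Fzd5 was at 11.8, 43.5, 63.2 and 41.5 CPM (P22 to P2 ratio 3.51 (95% exact interval 2.56 to 4.86)), lower at P2 than in every other library. Nkd1 (5.19, 15.1, 17.4 and 18.7, ratio 3.60 (95% exact interval 2.23 to 5.97)) and Fzd2 (213, 251, 262 and 459, ratio 2.15 (95% exact interval 1.99 to 2.33)) were lowest at P2 and highest at P22. Axin2 was at 16.6, 55.3, 101 and 36.5 (ratio 2.20 (95% exact interval 1.64 to 2.95)) and Fzd1 at 11.01, 32.8, 77.0 and 27.9 (ratio 2.53 (95% exact interval 1.79 to 3.62)), and both had their highest level at P12 replicate 2. The P12 replicates of Fzd1 also differed by more than 2-fold, 32.8 against 77.0. Fzd3 (150.2, 137, 177 and 76.8, ratio 0.512 (95% exact interval 0.442 to 0.591)) and Wnt7a (25.1, 12.0, 20.9 and 11.3, ratio 0.449 (95% exact interval 0.303 to 0.651)) were lower at P22. Lgr6, Rspo3, Wnt5a, Tcf7 and Rnf43 were also past 2-fold, with under 20 UMIs. With Prom1 required of qNSCs as well, 7 members were past 2-fold.

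In aNSCs the 6 members past 2-fold with at least 20 UMIs were Notum, Fzd5, Fzd7, Wls and Rnf43, higher at P22, and Wnt7a, lower. Fzd5 was at 6.21, 16.9, 25.6 and 14.2 (ratio 2.29 (95% exact interval 1.14 to 4.998)) and Fzd7 at 6.21, 19.0, 23.3 and 16.3 (ratio 2.62 (95% exact interval 1.32 to 5.65)). Wls was at 5.65, 6.33, 11.5 and 12.6 (ratio 2.23 (95% exact interval 1.07 to 5.10)) and Rnf43 at 2.26, 7.84, 3.82 and 7.32 (ratio 3.24 (95% exact interval 1.07 to 13.2)). The P12 replicates of Rnf43 (7.84 against 3.82) and of Notum (7.20 against 17.4) also differed by more than 2-fold. Wnt7a was at 14.1, 11.2, 15.9 and 4.47 (ratio 0.317 (95% exact interval 0.141 to 0.667)), with its P22 value below the other 3. The other 6 (Lgr6, Lgr4, Tcf7l1, Wnt5b, Tcf7 and Ror2) had fewer UMIs. In TAPs Wnt4 was at 1.37, 6.02, 3.99 and 5.81 (ratio 4.24 (95% exact interval 1.01 to 37.7)) and Fzd8 at 14.4, 15.9, 9.59 and 6.13 (ratio 0.426 (95% exact interval 0.217 to 0.833)), the latter lower at P22, and Lef1 and Wnt5b were past 2-fold with few UMIs. The Fzd5 and Wnt7a differences had the same sign in qNSCs and aNSCs, which come from the same mice.

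**Figure D5:**
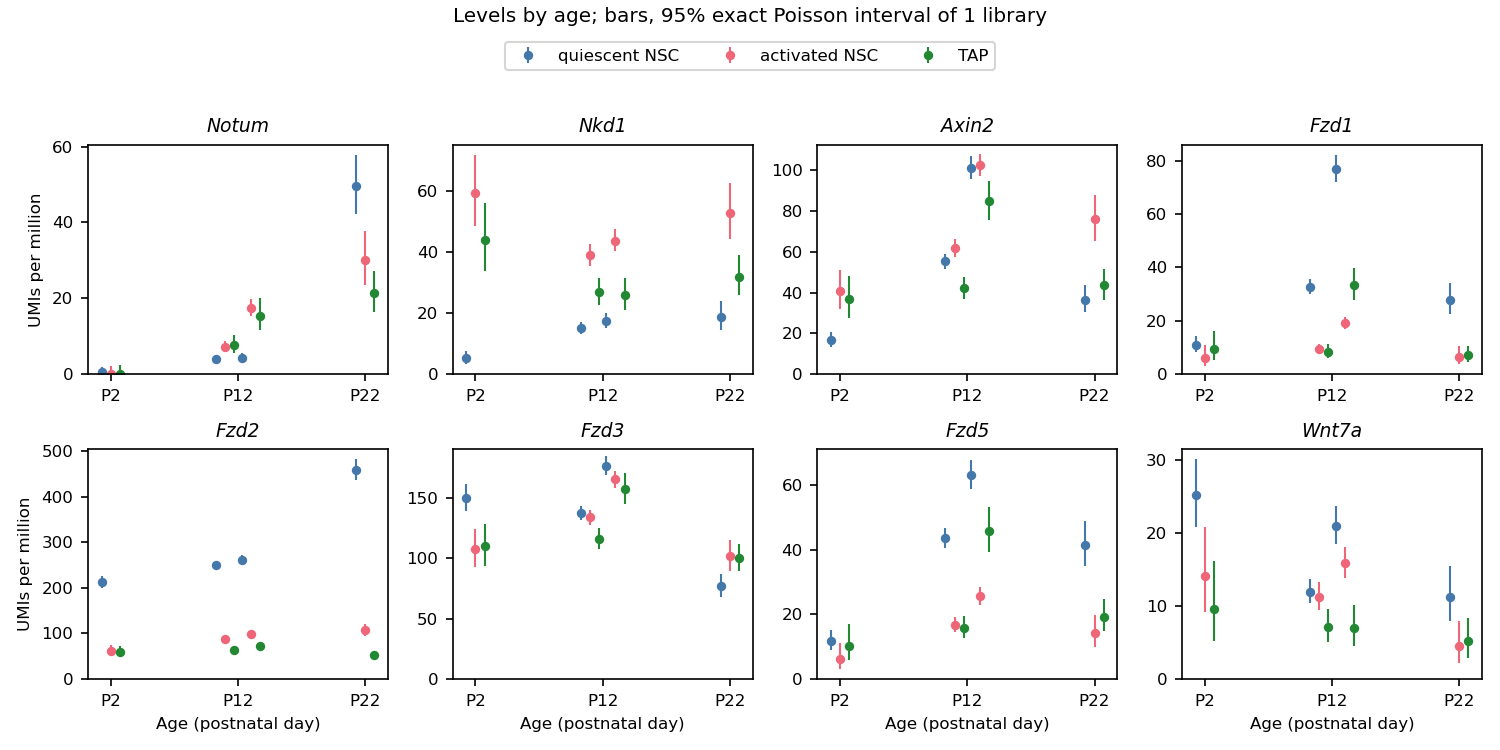
Levels of 8 members in CPM in qNSCs, aNSCs and TAPs of the 4 libraries by age, with bars for 95% exact Poisson intervals, which cover counting error only. Notum is higher at P22 than at P2 in all 3 states, Fzd5 is lowest at P2, and the P12 replicates of Axin2 and Fzd1 lie apart.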

How the data were processed

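Dissociated cells of the dorsal V-SVZ of OF1 mice were profiled with 10x Genomics 3′ chemistry. The authors deposited, per library, a matrix of raw UMI counts by gene and barcode, made with Cell Ranger (3.1.0 or 5.0.1 per the file headers) against mm10, as whole numbers without normalization. The submitters' processing notes also name Seurat 3. Columns of other samples numbered 0.

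The filter on cells (2000 to 8000 genes, no more than 10% of counts from mitochondria) is 1 of 2 that the study gives. Gates used log-normalized values (natural log of 1 plus UMIs per 10000). The regional, aNSC and TAP gates follow the study's marker genes, of which 1 is not reported here. The qNSC gate differs from the study's, since it leaves out Prom1 (required in an alternative) and excludes cells with Mki67, Top2a or high Dcx. Some checking markers recur in gates: Cldn5 in the endothelial gate, Gpr17 in that of committed oligodendrocytes, Dlx6os1 in the lineage gates, Sp9 in the regional gates and Mki67 and Top2a in that of qNSCs. Doublets were scored with Scrublet through scanpy 1.11.5, which called 42, 129, 3 and 44 cells (P2, P12 replicates 1 and 2, P22). At 0.0653% the call in P12 replicate 2 had not worked, so called cells were kept, and leaving out the 5% with the top doublet scores served as an alternative.

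UMIs were summed per state and library with at least 20 cells, and tested with edgeR 4.0.16 in R 4.3.3 (quasi-likelihood test, TMM, filterByExpr, library block, Benjamini-Hochberg adjustment over all genes tested, threshold 0.05). States of a library share animals, which is why the library enters as a block. The endothelial comparison could not be made as planned and used sums of at least 10 cells, chosen after seeing the data. Its p-values rest on 1 residual degree of freedom, as do those of the other comparisons of 2 libraries, with the spread of all genes borrowed. Ages were compared by ratios with exact Poisson intervals (95%), and shares of cells with exact binomial (Clopper-Pearson) intervals, both for counting error only. A count of 0 allows up to 3 counts.

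The text gives full values for up to 8 called members with the smallest adjusted p in a comparison, states the defining members of each role whether called or not, and names up to 3 further pathway genes. At ages it gives members past 2-fold with at least 20 UMIs. The members and lists were chosen with earlier results of these data known. The scripts were tested on simulated counts. Alternatives were DESeq2 1.42.0, RLE size factors, no filter on low counts, a filter of 2500 to 7500 genes, doublet removal, no block, 1 fit over all states, P12 alone, each library left out, Prom1 in the qNSC gate and cells thinned to 5000 UMIs. Promoter windows came from RefSeq.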

Additional observations from a re-analysis of the deposited data

Results flagged for a closer look

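In 3 cases the difference between cell states pointed one way at 1 age and the other way at another, with the 95% exact counting interval of the ratio off 1 in each library concerned. The difference between ages was not tested in any of them, and P2 and P22 had 1 library each. Fzd7 was higher in aNSCs than in qNSCs at P22 (log2 ratio 0.82, 16.3 against 9.20 CPM, 40 and 31 UMIs) and lower in both P12 replicates (-0.63 and -0.49). Notum was lower in aNSCs than in qNSCs at P22 (log2 ratio -0.72, 30.1 against 49.5 CPM) and higher in P12 replicates 1 and 2 (0.82 and 2.05). Dkk3 was higher in pallial than in subpallial qNSCs at P2 (log2 ratio 0.37, 168 against 130.4 CPM) and lower in both P12 replicates (-0.27 and -0.32). At P22 Dkk3 was lower in pallial qNSCs as well, at 166 against 242 CPM.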

How the results depend on the processing

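No call of a member turned to the other direction under an alternative: of 2772 fold changes recomputed, 2552 kept their side of the threshold, 169 lost their call and 51 gained one. Of 129 age ratios 13 moved beyond their counting interval, as did 3 of the 4 shares of Notum-positive qNSCs when cells were thinned. Of these 13 ratios, 5 moved when Prom1 was required of qNSCs, and under that gate only 4 did not move. The counts of members called moved with the model and with the libraries used, and the cause was not tested. For TAPs against aNSCs (17 called), DESeq2 called 10, 1 fit over all states 6 and the fit without the library block 3. For neuroblasts against TAPs (22), 12 were called without the block. For pallial against subpallial qNSCs (5), 1 was called without the block and 1 in the fit over all states. For pallial against subpallial aNSCs (6), DESeq2 called 1, and edgeR called 0 without the block and 0 in the fit over all states. For the glutamatergic against the GABAergic lineage (2), DESeq2 called 4, the fit over all states 5, P12 alone 1 and edgeR without the block 0. For ependymal cells against qNSCs (8), DESeq2 called 5, the fit over all states 3 and the fit without the block 4, and for astrocytes (12) the fit without the block called 5. The endothelial count of 18 has no planned counterpart. Between P22 and P2, 7 members in qNSCs were past 2-fold when Prom1 was required (13 without it).

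Libraries pair the states because both come from the same animals, and over all comparisons 51 fold changes lost their call without this block and none gained one. The count of 20 for aNSCs against qNSCs and of 15 for OPCs stayed within 1.5 times the main one under every alternative run. Leaving out 1 library at a time gave 17 to 23 members for aNSCs against qNSCs, 12 to 19 for TAPs against aNSCs, 6 to 20 for neuroblasts against TAPs (6 without P22), 3 to 6 for pallial against subpallial qNSCs (3 without P12 replicate 2), 0 to 2 for the glutamatergic lineage, 8 to 18 for astrocytes and 15 to 18 for OPCs. Not run were P12 alone for neuroblasts and OPCs, Prom1 for regional qNSCs, and leaving out a library where only 2 had enough cells. Depth limits the rare members: Wnt8b, Rspo2 and, in most states, Ror1, Lgr5 and Lef1 had too few UMIs for a test.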

Other observations

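Microglia, mural cells and committed oligodendrocytes entered no comparison, having too few cells in most libraries. In microglia of P22 (77 cells) Wls was at 117 CPM and Sfrp1 at 5.75, Lrp6 at 40.3 and Axin2 at 2.30. In committed oligodendrocytes of the same library (167 cells) Nkd1 was at 50.8 CPM, Axin2 at 22.1, Tcf7l1 at 21.4, Wnt4 at 35.2 and Fzd2 at 10.8.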
